A study of Mus musculus with 1 sample.

Results

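Short poly(A) tails that ended in T were examined in wild-type mouse cells of the ICR strain, 24 h after embryonic stem cells (ESCs) had begun to differentiate into epiblast-like cells (EpiLCs), on the way from naïve to formative pluripotency. Tails were read by PAIso-seq, which starts with a barcoded end extension of the RNA. Full-length transcripts are then copied into cDNA together with their tails and read in repeated passes on the PacBio platform. Whether these steps take up T-ending or very short tails as often as other tails was not tested. The data were 1 sample that held 2 replicates under different barcodes, numbered here by barcode, and nothing said whether they came from separate cultures. The cells were grown in N2B27 with activin A, bFGF and KSR. There was 1 group and no treatment contrast, and cells without Cnot8 were not analysed here. A tail belonged to the set when its read had at least 7 passes and a nuclear gene, its length was 6 to 30 nt and its last base was T. This gave 8813 tails of 3176 genes, from 57903 nuclear tails of 6 to 30 nt, 701976 nuclear tails of any length and 1013675 reads in all. The members were thus chosen by measured length and last base, and their share of short tails is a description. T in the cDNA stands for U in the RNA.

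The 3′ end of an mRNA is a point of control of its decay. Deadenylases such as those of the Ccr4-Not complex shorten the poly(A) tail, and the terminal uridylyltransferases Tut4 and Tut7 add U to tails that have become too short to hold the poly(A)-binding protein. The U end is bound by the Lsm1-7 ring, which promotes decapping by Dcp2 and decay by Xrn1, or is entered by the exonucleases Dis3l2 and the exosome from the 3′ end.

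The most frequent T-ending short tails show the form of the set, an A stretch with 1, 2 or 3 T at its end. The 2 most frequent tails of each run length follow, with the terminal T run in capitals.
1 T, 16 nt: aaaaaaaaaaaaaaaT
1 T, 20 nt: aaaaaaaaaaaaaaaaaaaT
2 T, 19 nt: aaaaaaaaaaaaaaaaaTT
2 T, 18 nt: aaaaaaaaaaaaaaaaTT
3 T, 18 nt: aaaaaaaaaaaaaaaTTT
3 T, 17 nt: aaaaaaaaaaaaaaTTT
The 19 nt tail with 2 T was read 259 times, in 219 genes, and the 18 nt tail with 3 T 95 times, in 82 genes. The same ends thus stood on transcripts of many genes. Near the lower length bound, the most frequent member had 5 A and 2 T, with 52 reads of 33 genes. Members with other bases before the run are shown by the next lines. The first 2 are the most frequent of them, with 9 and 8 reads, and the third is the most frequent member of Msh6, a mismatch repair gene.
1 T after G: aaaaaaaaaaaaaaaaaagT
2 T after a T and an A: aaaaaaaaaaaaaataTT
Msh6, 24 nt: aaaaaatgaaaaaaaaaaaaaaTT

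Replicate 1 held 246316 nuclear tails and replicate 2 held 455660, so the second library was the deeper one. They gave 3894 and 4919 members, or 1.58% and 1.08% of nuclear tails. A count of 3 members corresponded to 0.0141% and 0.00818% of the short tails, the limit of detection of a share. The markers of the labelled cells were present, with 303 transcripts of Pou5f1, 299 of Dnmt3b, 160 of Otx2 and 37 of Fgf5. Naïve markers ranged from 0 transcripts of Prdm14, 1 of Klf4, 4 of Tbx3 and 10 of Nanog to 40 of Esrrb and 501 of Zfp42. Of the 7 markers of endoderm, mesoderm, trophoblast and neural cells, Sox17, Gata4, T and Cdx2 were at 0, and Gata6, Pax6 and Sox1 had 1, 2 and 3 transcripts.

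Among tails of 6 to 30 nt, T stood at the end of 18.3% in replicate 1 (3894 of 21233, 95% Wilson interval 17.8% to 18.9%) and of 13.4% in replicate 2 (4919 of 36670, 13.1% to 13.8%). The intervals did not overlap, and replicate 1 was the higher at each of the 25 lengths. Intervals cover counting error only, since reads carried no molecular identifiers. The share had its peak at 12 nt in replicate 1, with 39.4% (172 of 436, 35.0% to 44.1%), and at 13 nt in replicate 2, with 26.1% (215 of 823, 23.2% to 29.2%). Neighbouring lengths had overlapping intervals, and both replicates then declined towards 30 nt. The share of 6 to 15 nt tails exceeded that of 16 to 30 nt tails by 16.9 percentage points in replicate 1 and 9.12 in replicate 2. Members were accordingly shorter than the other short tails, with a median of 19 nt (quartiles 15 and 23 nt) against 23 nt in both replicates.

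**Figure D1:**
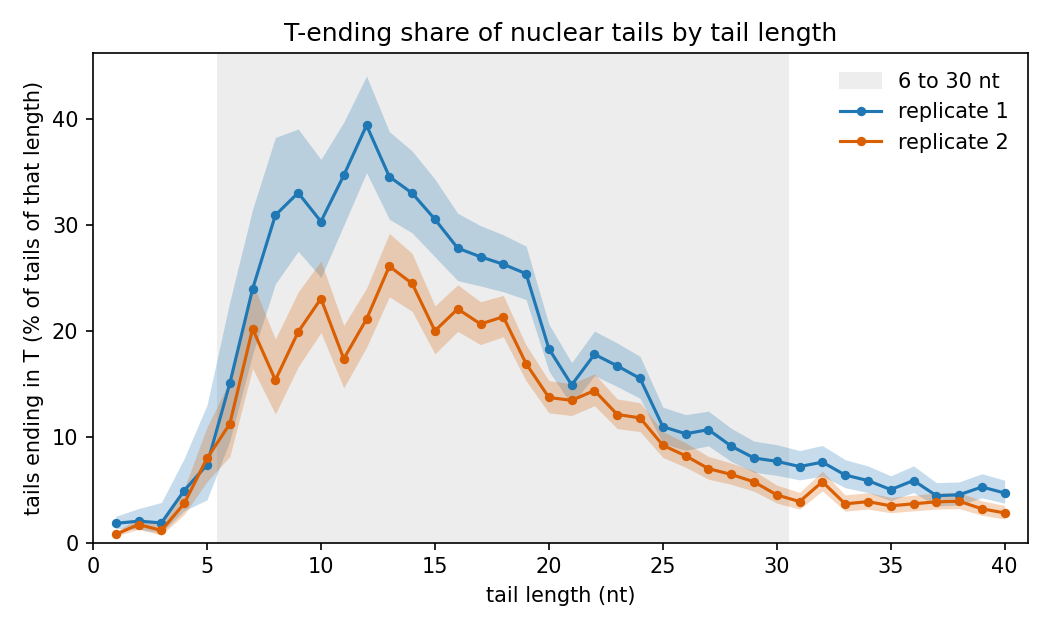
Share of nuclear tails that ended in T (y axis, %) at each tail length from 1 to 40 nt (x axis), for replicate 1 (blue) and replicate 2 (orange) with 95% Wilson intervals as bands. The grey field marks 6 to 30 nt, and the peaks of 39.4% and 26.1% lie at 12 and 13 nt.

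The bounds of the set fell on slopes of this curve. Just outside the lower bound, at 5 nt, the share was 7.35% and 7.96%, and just inside, at 6 nt, it was 15.04% and 11.2%. At the upper bound the values were nearly level, with 7.68% and 4.51% at 30 nt and 7.19% and 3.87% at 31 nt. Reads with 6 passes, just below the pass filter, had 22.1% and 13.1%, and reads with 7 passes had 17.2% and 12.1%. Tails over 30 nt ended in T in 2.57% and 1.64%.

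The 3′ end of short tails was examined base by base. In the deposited tails, T was frequent at the last 3 positions and rare before them. The last base was T in 18.3% and 13.4% of short tails, the base before it in 11.3% and 8.43%, and the third from the end in 2.65% and 1.92%. At the fourth from the end the share was 0.372% and 0.357%, and at the sixth it was 0.137% and 0.145%. No deposited nuclear tail had over 3 bases after its last A, so a T at the fourth position always had an A after it. Whether the fall after the third position was also present in the RNA was not tested. C and G were far rarer, although they too were most frequent at or near the last base. C was the last base of 0.518% and 0.434% of short tails, more often than in tails over 30 nt with 0.361% and 0.317%, and the intervals did not overlap in either replicate. G was the last base of 0.838% and 0.518% of short tails and of 0.924% and 0.588% of those over 30 nt. Of the short tails that ended in C, 4 of 110 and 3 of 159 had 2 or more C, and of those that ended in G, 1 of 178 and 3 of 190 had 2 or more G.

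**Figure D2:**
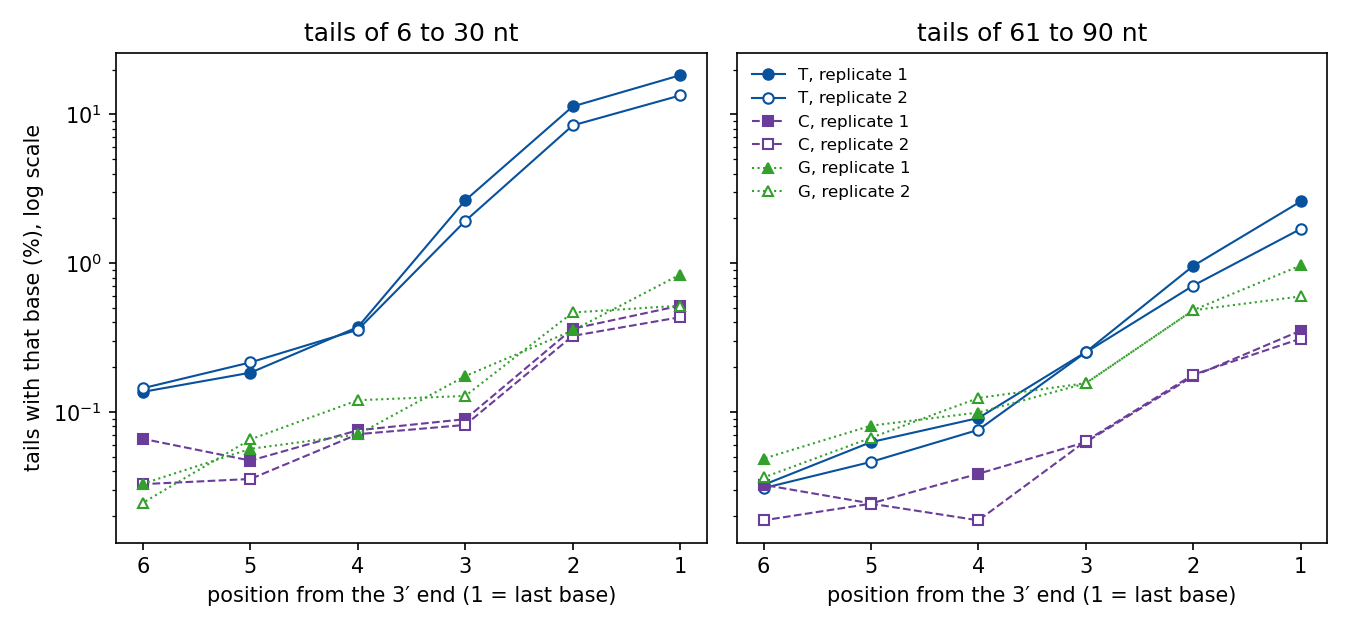
Share of tails with T, C or G (y axis, %, log scale) at the last 6 positions (x axis, 1 is the last base) of nuclear tails of 6 to 30 nt (left) and 61 to 90 nt (right), filled marks for replicate 1 and open marks for replicate 2. In short tails T goes from 18.3% and 13.4% at the last base to 0.372% and 0.357% at the fourth, while C and G stay under 0.9% throughout. The deposited nuclear tails have at most 3 bases after the last A.

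The length of the terminal T run was then counted over the members. A single T ended 1931 of 3894 members in replicate 1 and 2463 of 4919 in replicate 2, or 49.6% and 50.1%. Runs of 2 T made up 40.8% and 41.8%, and runs of 3 T 9.66% and 8.15%. The mean run was 1.60 and 1.58 nt in the 2 replicates, and runs of 2 or more had a share of 50.4% and 49.9%. The replicates thus differed far less in run length than in how often a short tail ended in T. Longer tails had a different make-up, since of those over 30 nt that ended in T, 12.5% and 15.2% had 2 or more T and 1.30% and 1.42% had 3. The difference from the members was 37.9 and 34.8 percentage points, against 0.341 (SD, n = 2) between replicates for the members and 1.86 for the longer tails.

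Run length went with tail length within the members too. Of T-ending tails of 6 to 15 nt, 49.1% and 46.3% had 2 T and 9.85% and 9.61% had 3 T. At 16 to 30 nt the values were 37.5% and 40.0% for 2 T, and 9.58% and 7.59% for 3 T. Single T was therefore the largest class at 16 to 30 nt, and runs of 2 T the largest class at 6 to 15 nt. The A part, counted as all bases before the run, had a median of 19 nt before 1 T, 16 nt before 2 T and 15 nt before 3 T, in each replicate alike. Its quartiles were 15 and 23 nt before 1 T, 12 and 20 nt in replicate 1 and 13 and 20 nt in replicate 2 before 2 T.

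**Figure D3:**
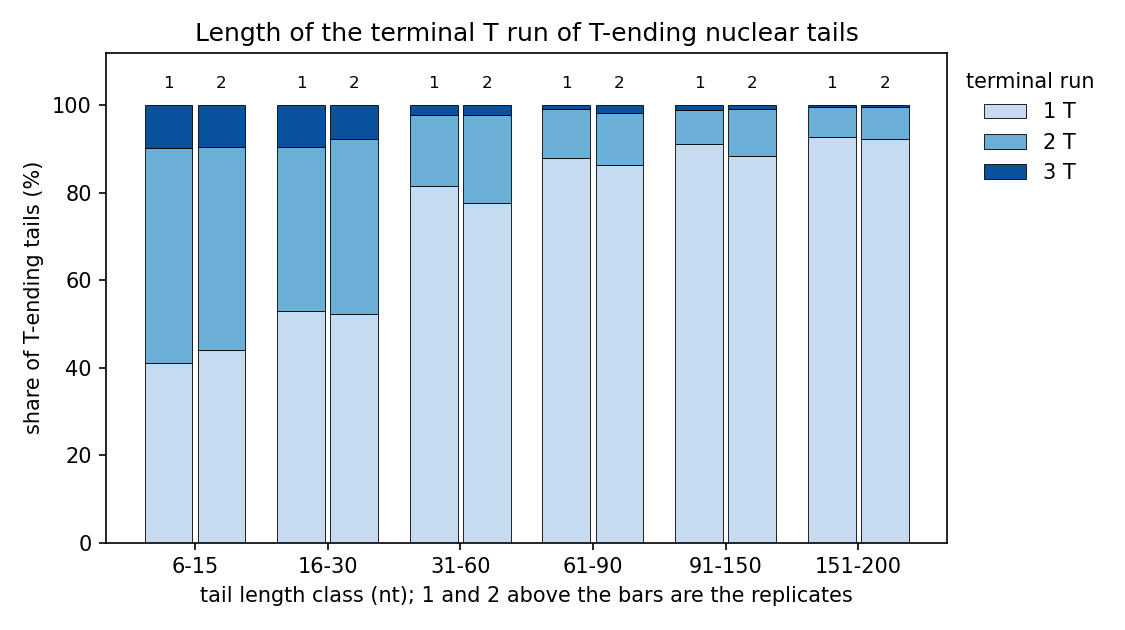
Share of T-ending nuclear tails with a terminal run of 1, 2 or 3 T (y axis, %, light to dark blue) in 6 tail length classes (x axis, nt), with 1 bar per replicate. Runs of 2 or 3 T make up 57.3% of all T-ending tails at 6 to 15 nt and shrink to a thin top from 61 nt on.

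No nuclear tail had a terminal run of 4 T or more. This held for all 753509 nuclear reads, of any length and pass number, where 0 reads allow a share of up to 0.000398%. More generally, no nuclear tail had over 3 bases after its last A, or over 3 non-A bases in a row anywhere. The methods give no limit of this kind, and reads without a gene did hold runs of 4 T. Those reads and mitochondrial reads had at most 4 bases after the last A. Elsewhere in their tails, non-A runs reached 22 and 15 bases. The counts above therefore describe runs of up to 3 T as deposited, and whether longer runs existed in the RNA was not tested.

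Before the run, most members had A alone, in 90.4% of each replicate (3522 of 3894 and 4445 of 4919). At least 1 other base stood in 9.55% and 9.64%, against 5.67% and 5.00% of the short tails that ended in A. The excess was seen for each base. T occurred before the run in 5.57% and 6.26% of members and in 4.09% and 3.51% of A-ending short tails. C occurred in 3.26% and 2.66% against 1.17% and 1.08%, and G in 2.67% and 2.83% against 0.880% and 0.920%. The deposited tails were extended by the authors into A tracts next to the tail, so that encoded A can stand in them. That extension adds no other base, and where the T, C and G before the run came from was not tested. Of the 846 members with other bases, 70, of 32 genes, opened with at least 4 bases that are also the last bases of an annotated transcript of the gene. Msh6 had 20 of them, and its 9 opening bases, shown in the sequence above, close the annotated transcript.

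Sequencing quality moved little with the last base. The median number of passes was 33 and 32 for members and 32 and 33 for the other short tails. The T-ending share was 18.3% and 13.3% for reads of one strand of the template and 18.4% and 13.5% for those of the other. Over reads of 7 to 14, 15 to 29, 30 to 59 and at least 60 passes, both replicates together had 15.05%, 15.8%, 15.7% and 14.5%.

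The members were spread over many genes. Of the 12816 nuclear genes with a tail, 7401 had a tail of 6 to 30 nt and 3176 had a member, 1591 of them a single one and 132 at least 10. Replicate 1 had members of 2184 genes and replicate 2 of 1898, with 906 shared, or 41.5% of the first and 47.7% of the second. The 12 genes with the most members held 499, or 5.66% of all. With so few members per gene, values of single genes carry wide intervals.

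The gene with the most members was Eif3a, the large scaffold subunit of translation initiation factor eIF3 (ENSMUSG00000024991, GRCm38 chromosome 19, 60761117 to 60790658, minus strand). T ended 26 of its 62 short tails in replicate 1 and 42 of 187 in replicate 2, or 41.9% and 22.5%. Of its 68 members 22 had 1 T, 45 had 2 T and 1 had 3 T, so the run of 2 was the most frequent. Ncl, which codes for the nucleolar protein nucleolin, followed with 24 of 116 and 41 of 212 tails, 20.7% and 19.3%. The cytosolic chaperone genes Hsp90aa1 and Hsp90ab1 came next, with 21 of 97 and 41 of 328, and 28 of 142 and 23 of 187. They were followed by the histone chaperone gene Nasp with 12 of 61 and 25 of 178, Msh6 with 13 of 59 and 23 of 139, and Hspd1, the mitochondrial chaperonin, with 18 of 54 and 17 of 120. Npm1, a nucleolar chaperone gene, had 11 of 77 and 18 of 199, 14.3% and 9.05%, below the share over all short tails in both replicates.

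The other genes of the 12 were Jade1, L1td1, Kpnb1 and Serbp1. Kpnb1, the nuclear import receptor importin beta, had 14 of 37 and 15 of 69 tails, 37.8% and 21.7%. L1td1, an RNA-binding protein gene of pluripotent cells, had 8 of 46 and 21 of 126, and Serbp1, which codes for a ribosome-associated protein, 10 of 58 and 17 of 159. These genes differ in how many transcripts they had, from 385 for Jade1 to 6459 for Hsp90ab1. Per 100 transcripts, Jade1 had 8.05 members, Msh6 5.83 and Eif3a 5.07, and Hsp90ab1 0.790.

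Runs of 3 T were compared among the 8 genes with at least 30 members. Msh6 had the highest share, 6 of 36 members, and 20 of its members opened with the annotated transcript end. Hsp90aa1 had 6 of 62, Ncl 5 of 65, Hspd1 2 of 35 and Hsp90ab1 2 of 51. These counts are small, and their order is not firm.

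The T-ending share per gene was read over the 131 genes with at least 50 short tails and at least 15 in each replicate. It ranged from 0% to 33.8% with a median of 13.5% and quartiles of 9.92% and 18.4%, and it was higher in replicate 1 for 93 genes. The highest share was that of Tpr, a filament protein of the nuclear pore basket (ENSMUSG00000006005, GRCm38 chromosome 1, 150392838 to 150449935, plus strand), with 8 of 21 and 15 of 47 tails, 38.1% and 31.9%. Of its 23 members, 9 had 1 T, 6 had 2 T and 8 had 3 T. Jade1, a subunit of histone acetyltransferase complexes (GRCm38 chromosome 3, 41555731 to 41616864, plus strand), had 9 of 25 and 22 of 76, 36% and 28.9%. Next were Dnttip2, a nucleolar protein gene, with 8 of 26 and 14 of 48, and Canx, the endoplasmic reticulum chaperone calnexin, with 6 of 16 and 10 of 38. Top2a, a DNA topoisomerase, had 5 of 27 and 17 of 48, the only one of the 6 with the higher share in replicate 2. Akap12, a scaffold of protein kinase A, had 16 of 41 and 10 of 48. The pooled intervals of these 6 genes overlapped, with that of Tpr at 23.7% to 45.7% and that of Akap12 at 20.8% to 39.4%.

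At the other end, Rps14, a protein of the small ribosomal subunit, had no member in 28 and 30 short tails (0 of 58, where a count of 0 allows up to 3 tails, a share of 5.17%). Cct5, a subunit of the cytosolic chaperonin, had 0 of 26 and 1 of 40. Gm10282, a predicted protein-coding gene, had 1 of 33 and 0 of 25, and Nop56, of the box C/D snoRNA complex, 1 of 21 and 0 of 29. Zfp42, the naïve pluripotency marker also known as Rex1 (GRCm38 chromosome 8, 43295063 to 43306980, minus strand), had 1 of 33 and 1 of 72, 3.03% and 1.39%. It had 105 short tails among 501 transcripts, so short tails were frequent and a T end was not. The processed pseudogene Gm15459 had 8 of 270 and 4 of 559, 2.96% and 0.716%. This value is uncertain, because a pseudogene can take reads of the parent gene it copies. At the T share of all short tails of the same lengths Tpr would have had 16.9%, Zfp42 17.4% and Rps14 11.1%. This order differed from the one measured.

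Across the 131 genes, the share in replicate 1 and that in replicate 2 had a Spearman correlation of 0.32 and a Pearson correlation of 0.34. This describes genes read in the same libraries, with 15 or more tails each. The pooled share went with the length of the longest annotated transcript, with a Spearman correlation of 0.53 (0.39 in replicate 1 and 0.46 in replicate 2). With the share of tails in the 6 to 30 nt range it was 0.36, with the number of transcripts -0.31, and with the median length of the gene's tails over 30 nt -0.12.

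Transcript length was then used to divide all short tails, without a limit on tails per gene. Genes with a longest annotated transcript of up to 1 kb had T at 7.20% of short tails in replicate 1 (5.62% to 9.17%) and 4.67% in replicate 2 (3.66% to 5.94%). The share was 12.0% and 7.75% for 1 to 2 kb, 15.7% and 11.3% for 2 to 3 kb, and 19.6% and 13.8% for 3 to 5 kb. It reached 25.2% and 19.3% for 5 to 8 kb, and 27.8% (25.3% to 30.5%) and 21.6% (20.0% to 23.2%) over 8 kb. Each step was upwards in both replicates. At the T share of all short tails of the same lengths the first and last class would have had 14.6% and 20.2% in replicate 1 and 11.3% and 14.3% in replicate 2, a smaller range than measured. Within tails of 16 to 30 nt, both replicates together went from 5.35% to 20.0%, and within 6 to 15 nt from 7.82% to 37.1%. Protein-coding genes alone gave 5.25% up to 1 kb and 23.6% over 8 kb.

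The run was also longer in genes with long transcripts. Runs of 2 or 3 T made up 28.8% (18.8% to 41.4%) and 29.03% (19.2% to 41.3%) of members up to 1 kb, 38.7% and 36.9% at 1 to 2 kb, 53.4% and 50.7% at 3 to 5 kb, 53.1% and 52.8% at 5 to 8 kb, and 59.8% (54.3% to 65.0%) and 63.4% (59.2% to 67.4%) over 8 kb. Here the replicates overlapped at each class. These run shares were not adjusted for tail length. Over all members, runs of 2 or 3 T made up 57.3% at 6 to 15 nt and 47.4% at 16 to 30 nt. The annotated length is that of the longest transcript in GENCODE, not of the molecule read, and expression and gene function differ between the classes as well.

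**Figure D4:**
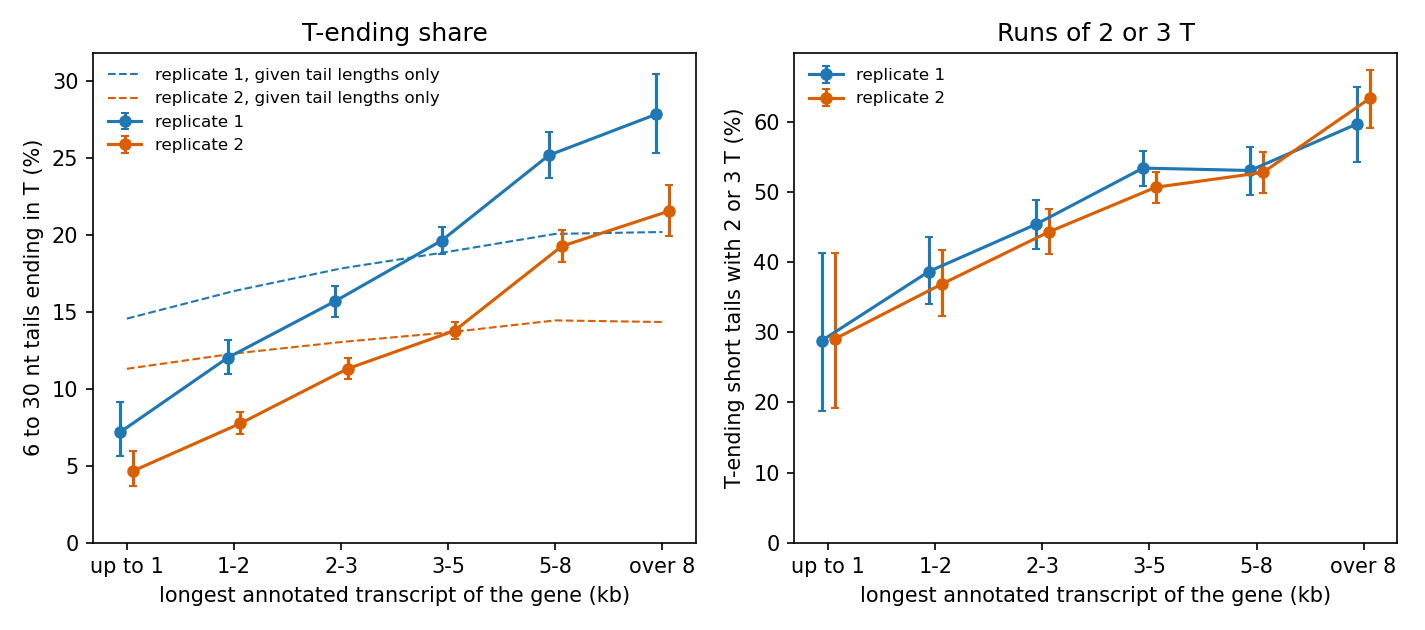
Left, share of 6 to 30 nt nuclear tails that ended in T (y axis, %) by the longest annotated transcript of the gene (x axis, kb), with dashed lines for the share that the tail lengths alone would give. Right, share of T-ending short tails with 2 or 3 T. Points are replicate 1 (blue) and replicate 2 (orange) with 95% Wilson intervals, and the left panel climbs at each step, from 7.20% and 4.67% to 27.8% and 21.6%, while the right panel is level between 3 and 8 kb.

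Gene classes were compared between members and the other short tails. Protein-coding genes made up 97.4% and 98.0% of members and 94.2% and 93.8% of the others, a difference of 3.70 percentage points ± 0.710 (SD, n = 2). Processed pseudogenes, which are copies of mRNAs inserted back into the genome, made up 1.44% and 1.04% of members and 4.23% and 4.63% of the others, a difference of -3.19 ± 0.570. Both differences were larger than the spread between replicates, and smaller when each tail of a gene was counted once per replicate, at 2.23 and -1.80 points over both replicates against 3.79 and -3.28. Without the 20 genes with most short tails, they were 2.48 and -1.94. Processed pseudogenes took 9.66% of all nuclear tails. Reads of their parent genes can be among these, so the values of this class are uncertain. Long non-coding RNAs (lncRNAs) took 0.565% and 0.447% of members and 0.611% and 0.532% of the others, and the sign of this small difference changed with the length window. Members comprised 8614 tails of protein-coding genes, 107 of processed pseudogenes, 46 of other pseudogenes, 44 of lncRNAs and 2 of other types. Genes of the annotation type transcribed processed pseudogene were counted with the other pseudogenes. Among them, Gm12346 had T at 8 of 55 and 15 of 111 short tails, and gave 23 of the 46 members.

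Seen by class, T ended 18.8% and 13.9% of short tails of protein-coding genes, 17.2% and 11.5% of those of lncRNAs, and 7.10% and 3.35% of those of processed pseudogenes. The lncRNA intervals, 11.6% to 24.7% and 7.73% to 16.8%, held the protein-coding values. Processed pseudogenes were lower than protein-coding genes in each replicate with no overlap of intervals, and at their tail lengths 12.5% would have been the pooled share in place of the 4.63% seen. Protein-coding genes with a longest transcript of up to 1 kb were low too, with a pooled 5.25% (3.88% to 7.07%). Gene class and transcript length were not separated here, and reads of parent genes were not separated from those of pseudogenes. Gm15459 held 829 of their 2311 short tails. Without it they had 9.25% and 4.88%, and a pooled 6.41%. With each tail of a gene counted once per replicate the pooled share was 8.76%, against 18.2% for all short tails counted so. Of the 107 processed pseudogene members 33.6% had 2 or more T, against 50.4% of the protein-coding ones.

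Gene lists gave a further view of the make-up. Cytosolic ribosomal protein genes had T at 12 of 189 short tails in replicate 1 and 11 of 301 in replicate 2, 6.35% and 3.65%, below the share of all short tails in both. Members were found for 14 of the 53 genes with short tails, and 5 of the 23 members had 2 or more T. Nuclear genes of oxidative phosphorylation (OXPHOS) had 14 of 153 and 16 of 242, 9.15% and 6.61%, with 9 of 30 runs of 2 or more. At their tail lengths, 12.3% and 12.0% would have been the pooled shares of these lists, in place of 4.69% and 7.59%. Transcript length was not taken into account, and protein-coding genes of up to 1 kb had a pooled 5.25%. Both lists also had few short tails, 2.77% and 3.03% of their transcripts, against 8.25% over all nuclear genes.

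Translation factors had 98 of 539 and 155 of 984, 18.2% and 15.8%, and the pooled 16.6% stood above the 14.1% of their tail lengths. Eif3a gave 68 of these 253 members. Without it the list had 15.1% and 14.2%, a pooled 14.5% with an interval of 12.7% to 16.6% that held the 13.3% of its tail lengths. Glycolytic enzymes had 11 of 39 and 10 of 58, 28.2% and 17.2%, with wide intervals. Their pooled 21.6% (14.6% to 30.8%) stood above the 12.6% of their tail lengths, on short tails that were 1.59% of their transcripts. Zfp genes, which code for zinc finger proteins, had 102 of 465 and 131 of 863, 21.9% and 15.2%, and a pooled 17.5% against 17.4% at their lengths. Tubulin genes had 16 of 102 and 9 of 115. Replication-dependent histone genes, whose mRNAs end in a stem-loop rather than a poly(A) tail, had 2 short tails and no member.

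The 14 naïve pluripotency factors had 5 of 52 and 6 of 93 short tails ending in T, 9.62% and 6.45%, against 17.6% at their tail lengths. Zfp42 gave 105 of these 145 tails and 2 of the 11 members, so the value is mostly its own. Without it the list had 4 of 19 and 5 of 21, a pooled 22.5% (12.3% to 37.5%) against 18.1% at their lengths. The pooled 7.59% of the whole list was 13.7% with each tail of a gene counted once per replicate, 12.2% at 6 to 20 nt and 3.30% at 16 to 30 nt. All short tails had 18.2%, 22.6% and 13.2% under the same settings. Nr0b1 had 5 members of 25 short tails and Klf5 2 of 4. Of the formative markers, Fgf5 had 4 of 10, Otx2 4 of 40, Pou3f1 2 of 3 and Dnmt3b 1 of 14, and the pluripotency factors Pou5f1 and Sox2 had 0 of 5 and 0 of 6. The study's list of genes under Cnot8-dependent degradation, chosen by its authors in these cells and so not independent, had 298 of 1602 and 389 of 2692, 18.6% and 14.5%. This was close to the share of all short tails and to the 15.7% of its tail lengths, with a pooled 16% (14.9% to 17.1%).

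**Figure D5:**
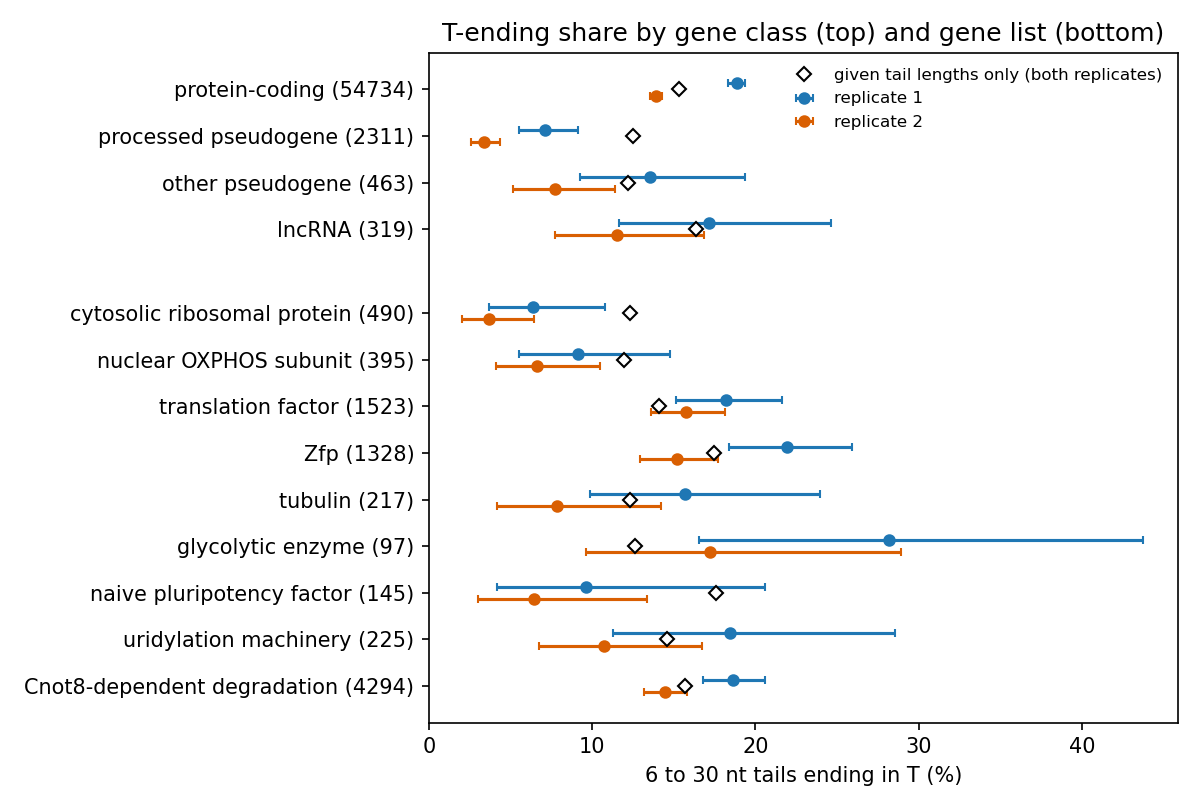
Share of 6 to 30 nt tails that ended in T (x axis, %) for 4 gene classes and 9 gene lists (y axis, with the number of short tails), in replicate 1 (blue) and replicate 2 (orange) with 95% Wilson intervals. Open diamonds give the share that the tail lengths alone would give, and processed pseudogenes, ribosomal protein genes, OXPHOS genes and naïve pluripotency factors lie to their left in both replicates.

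A list of genes around tail uridylation and decay was looked at as transcripts in their own right. It also holds poly(A)-binding, decapping and related genes that do not themselves act on U-ending tails. Together, the 20 genes had 3023 transcripts, 225 short tails and 30 members, 18.4% and 10.7% by replicate and 13.3% pooled. At their tail lengths 14.6% would have been the pooled share. Without Pabpc1, which gave 123 of the short tails, they had 28.6% and 16.4%. The pooled value was then 20.6%, with an interval of 13.9% to 29.4% that held the 16.1% of the tail lengths. For the whole list, Pabpc1 included, counting each tail of a gene once per replicate gave 20.5%, against 18.2% for all short tails. At 6 to 20 nt the whole list had 28.4%, against 22.6% for all short tails. Dis3, the exosome nuclease, had 4 of 15 and 6 of 27 tails ending in T, and Eri1, a 3′ exonuclease of histone mRNA decay, 3 of 6 and 4 of 23. Pabpc1, the cytoplasmic poly(A)-binding protein gene, had 4 of 41 and 5 of 82, 9.76% and 6.10%. The pooled interval of Pabpc1, 3.90% to 13.3%, lay just below that of Dis3, 13.5% to 38.5%, and overlapped that of Eri1, 12.2% to 42.1%. Pabpc4, a related poly(A)-binding protein gene, had no member in 2 short tails.

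The uridylyltransferases were near the limit of detection. Tut4 had 15 transcripts with 1 member in 3 short tails, Tut7 9 transcripts with no short tail, Tut1, which acts on U6 RNA, 58 transcripts with 0 members in 7, and the poly(A) polymerase gene Tent2 26 transcripts with 0 in 1. Of the Lsm genes, Lsm1, Lsm2, Lsm4 and Lsm6 had 47, 60, 164 and 51 transcripts and no member. The decapping genes Dcp1a and Dcp2 had 1 member each, in 5 and 2 short tails, and Lin28a, a let-7 binding protein gene, had 1 in 3. Dis3l2 and Xrn1 had 6 and 7 transcripts and no member. At these counts a share could not be estimated for most of the machinery.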

How the data were processed

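The deposited table lists, per read, the barcode, gene, number of passes, counts of A, T, C and G in the tail, and the tail sequence. The authors made these counts from circular consensus reads (ccs), split by barcode, trimmed, mapped to mm10 with minimap2 2.17 and assigned with featureCounts 2.0.1. Their tails are the soft-clipped 3′ bases plus any neighbouring A tract, and tailless reads were dropped. The counts are not normalized.

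Reads with at least 7 passes were kept, as in the study. Genes were placed with GENCODE vM21 (GRCm38), and 7 identifiers with 31 reads had no entry there and were left out. Shares are given per replicate or pooled with 95% Wilson intervals. The share given by tail length alone is the mean, over the tails of a list, of the T-ending share of all short nuclear tails of each length. With 1 group no p-value was computed. The members, gene lists and naming rules were chosen with earlier results of these data known. Genes were named as the 12 with most members, the 6 highest and 6 lowest shares (at least 50 short tails, 15 per replicate), the 5 highest shares of 3 T (at least 30 members), machinery genes with at least 10 transcripts, and markers. Single genes outside this rule (Dis3l2, Tut7, Xrn1, Nr0b1, Klf5, Gm12346) were named after their values were seen. Of the alternatives tried, 12 were planned, 3 were chosen after seeing the data, and so were 4 that leave 1 gene out of a list. Scripts were tested on simulated tails. The software was Python 3.11.15 with scipy 1.17.1, matplotlib 3.10.9, pandas 2.3.3 and numpy 2.4.6.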

Additional observations from a re-analysis of the deposited data

Results flagged for a closer look

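Reads that no gene was assigned to entered no comparison above, and they too held short tails that ended in T. Of their 6 to 30 nt tails, 5.34% ended in T (910 of 17049), with 6.81% in replicate 1 and 4.58% in replicate 2. At 16 to 30 nt they had 14.2% and 11.2%, near the nuclear genes with 15.6% and 11.8%, and at 6 to 15 nt 4.08% and 2.77%, against 32.5% and 20.9%. A terminal run of 4 T was found in 84 of 152621 such reads, or 0.0550%, and in 0 of 753509 nuclear reads. The cause of either difference was not tested.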

How the results depend on the processing

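Of 257 values under alternatives other than leaving out a replicate, 204 moved by less than the spread between replicates. For counts the limit was a change of 1.5 times. Another 52 moved further, 23 of them shares of gene lists, and 1 changed sign. Some of the 204 could not move. The authors had already dropped tails poor in A at their start, and repeating that filter returned every main value unchanged. Keeping protein-coding genes only left most gene lists as they were. Lists with none of the 20 genes with most short tails were unchanged when those were left out. The 204 is thus not a measure of stability. Tails of 6 to 20 nt gave a T-ending share of 22.6%, 2 or more T in 55.2%, a mean run of 1.65 nt, A alone before the run in 91.8%, and differences of 2.90, -2.15 and -0.276 percentage points for protein-coding genes, processed pseudogenes and lncRNAs. Tails of 16 to 30 nt gave 2 or more T in 47.4%, a mean run of 1.56 nt, A alone in 89.4% and an lncRNA difference of 0.0650, a change of sign. Tails of 10 to 30 nt gave 49.8%, 90.3% and -0.00476 for runs of 2 or more, A alone and lncRNAs, and tails of 8 to 30 nt -4.905e-05 for lncRNAs. At least 30 passes gave 49.7% with 2 or more T and 91.3% with A alone, and at least 15 passes 90.7%. A alone stood before 90.3% in wells with 1 transcript, 90.5% without the 20 genes with most short tails, 90.5% in protein-coding genes and 90.3% with each tail of a gene counted once. Tails with A alone gave 51.5% with 2 or more T and a mean run of 1.60 nt. Without the 20 genes, protein-coding and processed pseudogene differences were 2.48 and -1.94 points. With each tail counted once they were 2.23 and -1.80, the lncRNA difference was -0.130 and 49.5% had 2 or more T. Besides the list values given with the results, moves of over 1.5 times were to 7.83% for ribosomal protein genes, 25.2% for translation factors and 17.4% for tubulin genes at 6 to 20 nt, and to 17.7% for tubulin genes with each tail counted once. Counting once merges tails with the same sequence in a gene and replicate, which took in 1696 of 8813 members and 21426 of 49090 other short tails. A tail of A alone has only 1 possible sequence at each length, while a T-ending tail has several. The merge therefore falls more on the other tails by construction, and shares counted once are not shares corrected for duplicates. Leaving out a replicate, the number of genes with a member was 1898 (without replicate 1) to 2184, against 3176. The cause of the other shifts was not tested.

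No paired analysis was possible because 1 group was measured. Depth limits single genes and short gene lists most. The spread rests on 2 replicates, and for A alone it was 0.0587 percentage points, so that small shifts exceed it.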

Other observations

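Mitochondrial transcripts had short tails but few T ends. Of their 6 to 15 nt tails, 17 of 931 and 29 of 1946 ended in T, 1.83% and 1.49%, and of those of 16 to 30 nt, 3 of 197 and 2 of 275. Nuclear tails of the same lengths were higher by 30.7 and 19.4 percentage points at 6 to 15 nt and by 14.1 and 11.1 at 16 to 30 nt.

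Of the 618 Msh6 transcripts, 69 tails opened with the 9 bases that end its annotated transcript. These were 20 of its 36 members and 14 of its 162 other short tails.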
